A study of Mus musculus with 3 samples.

Results

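Norrin and its receptor complex form the signal that builds and keeps the barrier of retinal vessels, and 9 of the 32285 genes in the count tables were followed here: the ligand gene Ndp, the receptor gene Fzd4, the co-receptor genes Lrp5 and Lrp6, the accessory gene Tspan12, the effector gene Ctnnb1, and the Wnt target genes Lef1, Axin2 and Apcdd1. The members were chosen by symbol, for their place in the pathway. The question was which retinal cells carried the RNA of the sender and which that of the receiver, and whether either differed with age. The cells came from retinas of C57BL/6JRj mice with no treatment, aged 3 months (young), 12 months (adult) or 23 months (old), dissociated and passed over CD31 beads to enrich endothelial cells. Each age had 1 library, made from the pooled retinas of a pair of animals (3 libraries in all), so that an age is not told apart from its animals or its preparation. Droplet single-cell sequencing of transcript 3′ ends was used, in which each captured transcript carries a unique molecular identifier (UMI).

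Norrin is a secreted protein that is not a Wnt but binds the Wnt receptor Frizzled-4, with Lrp5 or Lrp6 as co-receptor and the tetraspanin Tspan12 as a partner that strengthens the signal. Binding stops the destruction of β-catenin, which then enters the nucleus and switches on target genes together with TCF and LEF proteins. Loss of norrin, Fzd4, Lrp5 or Tspan12 leaves the retina with too few vessels, a leaky blood-retina barrier and, in people, the disease familial exudative vitreoretinopathy or the related Norrie disease.

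Of all barcodes, 5363 cells were kept, 1705 young, 1957 adult and 1701 old, and 4 barcodes occurred in a pair of libraries. Clusters were named from fixed marker genes, with the 9 members and 93 further pathway genes kept out of the clustering, and the comparisons took in 7 classes, each with 30 or more cells per library. These were the endothelial-like class with 436, 427 and 404 cells (young, adult and old in turn, as in all series of values below), the pericyte-like class with 169, 130 and 101, a class led by smooth muscle markers with 38, 38 and 37, the Müller glia-like class with 180, 214 and 208, and the rod-, cone- and bipolar-like classes. Their sums held between 307598 and 3619499 UMIs per library. All 8 endothelial markers were found in the endothelial-like class in every library, with a summed level of 3497, 3498 and 3600 CPM, the UMIs of a gene scaled to a common class total. Droplets also held RNA of other cells. The same 8 markers reached 12.9, 14.5 and 16.1% of that level in the pericyte-like class, 4.25 to 8.17% in the smooth muscle class, 1.73 to 2.2% in bipolar-like cells and 0.04 to 0.87% in Müller glia-, rod- and cone-like cells. A member's level in a class was therefore set beside the level that RNA of its highest class would give, which is the endothelial-like class for 6 members, the Müller glia-like for Ndp, the pericyte-like for Lrp5 and the smooth muscle class for Tspan12. Clusters that carried both endothelial and pericyte markers (315, 250 and 226 cells) were left out of both classes.

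The sender was read from Ndp (ENSMUSG00000040138), on chromosome X at 16885521 to 16911774 of GRCm38 on the minus strand, which encodes norrin. Its RNA was found in Müller glia-like cells and, in the compared classes, almost nowhere else. The level there was 16.3 CPM (27 UMIs), 13.9 CPM (27 UMIs) and 15.9 CPM (25 UMIs). Endothelial-like and rod-like cells held 1 UMI each over all 3 libraries, and pericyte-, cone- and bipolar-like cells and the smooth muscle class held 0. The 3 Müller glia-like values lay close together and none of the other classes overlapped them. Over the pooled libraries Ndp stood at 15.3 CPM in Müller glia-like cells, which was 156-fold the endothelial-like level (95% exact conditional interval 27.2 to 6232, counting error only) and 32.0-fold the rod-like level (5.58 to 1280). Against the classes at 0, with 3 UMIs over the pooled libraries as the floor, it was at least 19.5-fold higher than in bipolar-like cells, 8.92-fold than in pericyte-like cells, 8.41-fold than in cone-like cells and 5.08-fold than in the smooth muscle class. Ndp was under the minimum count of the test across genes. In a fit without that minimum, edgeR's quasi-likelihood test gave Benjamini-Hochberg adjusted p between 7.64e-20, against endothelial-like cells, and 0.00012, against the smooth muscle class.

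A UMI of Ndp was seen in 25 of 180 young (13.9%, exact Clopper-Pearson 95% interval 9.19 to 19.8), 24 of 214 adult (11.2%, 7.32 to 16.2) and 23 of 208 old (11.1%, 7.14 to 16.1) Müller glia-like cells. In bipolar-like cells, which stood for the background, it was seen in 0 of 200, 0 of 208 and 0 of 168, which allows shares of up to 1.5, 1.44 and 1.79%. The median depth was 9171, 9467.5 and 6912 UMIs in the Müller glia-like and 6110.5, 6610 and 6255 in the bipolar-like cells. After every cell was thinned to 2000 UMIs, Ndp remained in 3.53, 4.04 and 4.17% of Müller glia-like cells. Most of these UMIs, 75 of 79, lay in the larger Müller glia-like cluster, led by Rlbp1, Crym and Aqp4 (16.1 CPM, 95% Poisson interval 12.7 to 20.2), while the smaller cluster of 114 cells with fewer UMIs held 4 (7.96 CPM, 2.17 to 20.4). The promoter of Ndp is shown because it is the sequence in front of the sender's gene and carries the letters that TCF and LEF proteins are known to bind. These were searched as CTTTG followed by AA, AT, TA or TT on both strands of 10 RefSeq promoters of 6 members (250 bases before to 50 after a start), and were present in the Ndp promoter and in 1 of 4 promoters of Lef1. Of all 32851 promoters of this length, 16.9% hold such a match, against 20% of the members'. A match is a description of the letters and does not show binding. The stretch of GRCm38.p6 around the match in Ndp lies on the minus strand at chrX:16911879-16912005, with the match, in capitals, 171 bases before the start.

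Ndp: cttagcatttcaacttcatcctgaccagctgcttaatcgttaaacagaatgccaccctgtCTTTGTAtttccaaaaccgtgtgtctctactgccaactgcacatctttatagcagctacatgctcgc

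The receptor gene Fzd4 (ENSMUSG00000049791; chromosome 7, 89404355 to 89413134, plus strand) was highest, among the compared classes, in those of the vessel wall. Its level in endothelial-like cells was 124 CPM (397 UMIs), 132 CPM (445 UMIs) and 118 CPM (426 UMIs). In the smooth muscle class it was 143 CPM (44 UMIs), 97.3 CPM (32 UMIs) and 69.6 CPM (25 UMIs), and in pericyte-like cells 57.4, 60.7 and 75.2 CPM. The endothelial-like and smooth muscle values overlapped, and both vessel wall classes besides the endothelial were above the level that endothelial RNA would give in every library. Müller glia-like cells, which carry the ligand, held 4.84, 4.63 and 3.83 CPM of the receptor. These values were low but also above the level that endothelial RNA would give, at 0.429, 0.448 and 0.521 CPM. Levels were 3.28 to 18.8 CPM in rod-like, 2.01 to 10.2 CPM in cone-like and 0 to 3.53 CPM in bipolar-like cells. Judged by the lower end of the counting interval, rod- and cone-like values passed the endothelial RNA level in the young and adult libraries only. Bipolar-like values passed it in no library. Endothelial-like cells were higher than Müller glia-like cells by 4.84 on the log2 scale (SE 0.23, edgeR adjusted p = 7.93e-24, n = 3 libraries) and higher than pericyte-like cells by 1.15 (SE 0.17, edgeR adjusted p = 2.39e-07). The difference from the smooth muscle class was 0.34 (SE 0.19, edgeR adjusted p = 0.156), and without the young library it was 0.65 and passed the threshold (edgeR adjusted p = 0.0171).

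A UMI of Fzd4 was seen in 50.5, 49.2 and 54.5% of endothelial-like cells, with intervals between 44.3 and 59.4%. In rod-like cells, taken as the background for vascular genes, the shares were 4.82, 3.11 and 0.847%. As rod-like Fzd4 was above the endothelial RNA level in the young and adult libraries, these shares are not a background of such RNA alone. Depth differed, with medians of 5642.5, 6001 and 7491 UMIs in endothelial-like and 2287, 2425.5 and 2152.5 in rod-like cells. After thinning to 2000 UMIs, which left out 13, 26 and 5 endothelial-like and 61, 105 and 94 rod-like cells, the shares were 19.6, 22.4 and 19.0% against 3.81, 0.922 and 0%.

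The co-receptor gene Lrp5 (ENSMUSG00000024913; chromosome 19, 3584828 to 3686564, minus strand) was shared by endothelial-like, pericyte-like and Müller glia-like cells and was nearly absent from the neurons. It stood at 34.6, 36.6 and 42.3 CPM in endothelial-like, 30.2, 42.8 and 46.7 CPM in pericyte-like, 23, 17 and 24.9 CPM in Müller glia-like cells and 16.3, 15.2 and 19.5 CPM in the smooth muscle class. Within Müller glia-like cells the larger cluster held 18.2 CPM (14.6 to 22.5) over the pooled libraries. The smaller cluster held 49.8 CPM (32.2 to 73.5) on 25 UMIs. Rod-like cells held 2 UMIs, and cone- and bipolar-like cells 0. Endothelial-like cells were higher than Müller glia-like cells by 0.87 on the log2 scale (SE 0.17, edgeR adjusted p = 2.72e-05), and their difference from pericyte-like cells was 0.12 (SE 0.21, edgeR adjusted p = 0.689). The pericyte- and endothelial-like levels thus did not differ beyond their spread. The smooth muscle level was not above the level scaled from pericyte markers in the young and the adult library. The smooth muscle cluster itself met 4 pericyte markers, so this comparison cannot tell its own Lrp5 from pericyte RNA.

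Lrp6 (ENSMUSG00000030201; chromosome 6, 134446476 to 134566965, minus strand), which encodes a co-receptor that Wnts also use, was found in every compared class and library, from 33.4 CPM in the old smooth muscle class to 99.6 CPM in adult endothelial-like cells. Endothelial-like cells held 66.8, 99.6 and 90.3 CPM, Müller glia-like cells 69.6, 62.8 and 52.3 CPM, and rod-like cells 70.9, 58.8 and 75.5 CPM. The young endothelial-like value was below the young values of both other classes, and the adult and old values were above theirs. Over the pooled libraries the larger Müller glia-like cluster held 56.4 CPM (49.8 to 63.7) and the smaller 111 CPM (84.2 to 145), on 56 UMIs. The endothelial-like class was higher than the Müller glia-like by 0.53 on the log2 scale (SE 0.14, edgeR adjusted p = 0.000787) and than the rod-like by 0.44 (SE 0.17, edgeR adjusted p = 0.0248). Without the adult library the difference from rod-like cells was 0.22 (edgeR adjusted p = 0.422). Against the smooth muscle class it was 0.76 (SE 0.24, edgeR adjusted p = 0.00879), and 0.56 without the adult (adjusted p = 0.155) or 0.45 without the old library (adjusted p = 0.216). Without cells that held markers of another class, the difference from Müller glia-like cells was 0.30 (edgeR adjusted p = 0.0683), and those from rod-like cells and the smooth muscle class did not pass either (edgeR adjusted p = 0.199 and 0.125), nor did these last in DESeq2 (adjusted p = 0.204 and 0.0696).

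Tspan12 (ENSMUSG00000029669; chromosome 6, 21771395 to 21852515, minus strand), the tetraspanin of the complex, was highest in the smooth muscle class. Together with the pericyte-like class, this class makes up the mural cells that wrap the vessel. Tspan12 reached 124 CPM (38 UMIs), 113 CPM (37 UMIs) and 64 CPM (23 UMIs) in the smooth muscle class, 68.9, 60.7 and 73.2 CPM in pericyte-like and 60.5, 54.1 and 49.5 CPM in endothelial-like cells. All endothelial-like values were below all smooth muscle values, and the difference was -0.81 on the log2 scale (SE 0.20, edgeR adjusted p = 0.000988). Without the adult library this was -0.68 (edgeR adjusted p = 0.0508). Endothelial- and pericyte-like cells differed by -0.11 (SE 0.19, edgeR adjusted p = 0.671). Müller glia-like cells held 26, 17 and 21 CPM, and endothelial-like cells were above them by 1.43 (SE 0.18, edgeR adjusted p = 1.70e-09). Rod-like cells held 3, cone-like cells 5 and bipolar-like cells 1 UMI.

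**Figure D1:**
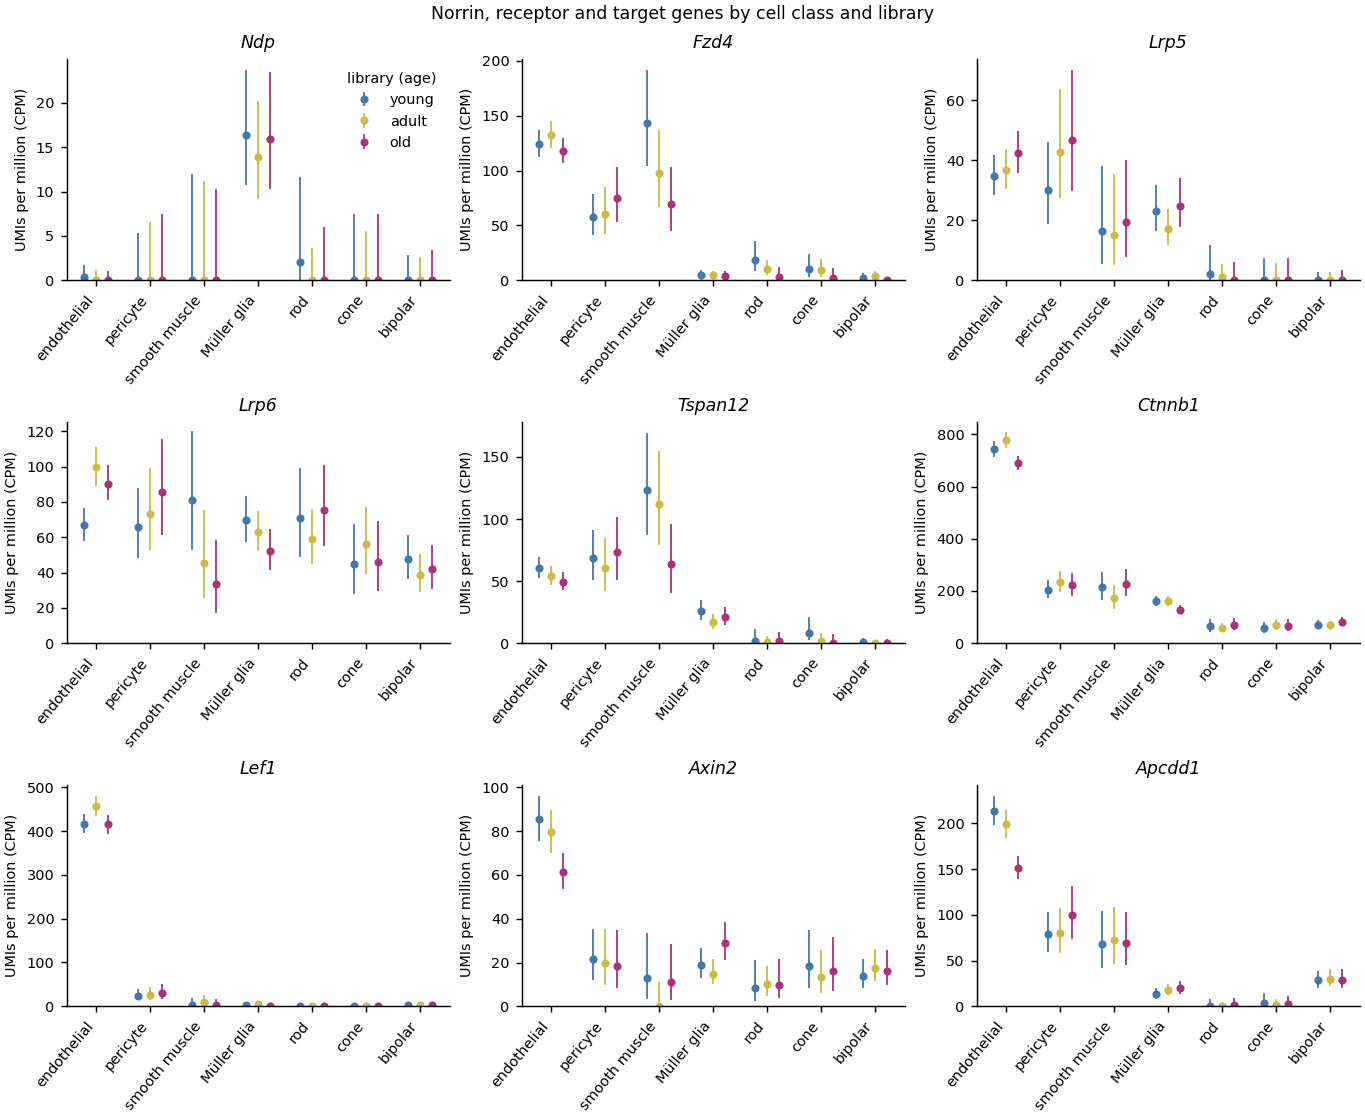
Level of each of the 9 members in the 7 compared classes, in CPM on a linear axis from 0 that differs between genes, with 1 point per library (young, adult, old) and bars for the exact 95% Poisson interval, counting error only. Ndp stands at 13.9 to 16.3 CPM in Müller glia-like cells and at or near 0 elsewhere, whereas Lef1 stands at 415 to 457 CPM in endothelial-like cells and at 30.5 CPM or less in all other classes shown.

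Cells with UMIs of the whole receptor complex, that is of Fzd4, of Tspan12 and of Lrp5 or Lrp6, made up 13.8% (60 of 436, interval 10.7 to 17.4), 13.3% (57 of 427, 10.3 to 16.9) and 15.1% (61 of 404, 11.8 to 19.0) of endothelial-like cells. The shares were 21.1, 15.8 and 13.5% in the smooth muscle class and 5.33, 3.08 and 4.95% in pericyte-like cells. Median depth was 5642.5, 6001 and 7491 UMIs in endothelial-like cells and 8082.5, 8209 and 8490 in the smooth muscle class. In pericyte-like cells it was 4011, 3972 and 4674 UMIs, and the part of depth in these class differences was not tested. No Müller glia-like or rod-like cell had all of them. Finding 3 modest transcripts in 1 cell depends on depth: in thinned cells the endothelial-like share over all libraries went from 14.0 to 0.491%.

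Ctnnb1 (ENSMUSG00000006932; chromosome 9, 120929216 to 120960507, plus strand) encodes β-catenin, which also joins cadherins at cell junctions, and its RNA was found in all classes. Endothelial-like cells held 744, 778 and 689 CPM. Pericyte-like cells held 205, 234 and 222 CPM, the smooth muscle class 215, 173 and 228 CPM and Müller glia-like cells 160, 161 and 128 CPM. The neuronal classes ranged from 56.9 to 82.7 CPM, and no other class overlapped the endothelial-like values. Endothelial-like cells were higher than Müller glia-like cells by 2.35 on the log2 scale (SE 0.09, edgeR adjusted p = 1.36e-26) and than pericyte-like cells by 1.92 (SE 0.10, edgeR adjusted p = 4.84e-21).

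Lef1 (ENSMUSG00000027985; chromosome 3, 131110471 to 131224356, plus strand), a nuclear partner of β-catenin and itself a Wnt target, had the largest difference between endothelial- and Müller glia-like cells among the 8 members tested. It stood at 416, 457 and 415 CPM in endothelial-like cells. Pericyte-like cells held 24.4, 26.8 and 30.5 CPM, which in no library was above the 53.5 to 66.8 CPM that endothelial RNA in these droplets would give. The smooth muscle class held 3.25, 9.12 and 2.78 CPM and Müller glia-like cells 3.02, 6.17 and 1.28 CPM. Rod- and cone-like cells held 0 UMIs, so that endothelial-like cells were at least 299-fold and 236-fold higher, with 3 UMIs over the pooled libraries as the floor. Against Müller glia-like cells the difference was 6.90 on the log2 scale (SE 0.18, edgeR adjusted p = 1.72e-31), and against pericyte-like cells it was 4.16 (SE 0.17, edgeR adjusted p = 2.20e-24). A UMI of Lef1 was seen in 84.9, 80.3 and 84.9% of endothelial-like cells (56.7, 55.1 and 52.1% after thinning) and in 0 of 166, 0 of 322 and 0 of 236 rod-like cells, which allows up to 1.81, 0.932 and 1.27%. The promoter of Lef1 with the TCF and LEF letters is shown because β-catenin acts through such sites. It belongs to a start inside the gene, and the Lef1 promoters nearer the gene's own start held no match. The stretch shown lies on the plus strand of GRCm38.p6 at chr3:131156087-131156213, with the match, in capitals and on the other strand of the gene, 147 bases before that inner start.

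Lef1: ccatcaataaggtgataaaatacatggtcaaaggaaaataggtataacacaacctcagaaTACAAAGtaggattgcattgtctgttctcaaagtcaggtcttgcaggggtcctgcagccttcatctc

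Axin2 (ENSMUSG00000000142; chromosome 11, 108920349 to 108950783, plus strand), a negative regulator that Wnt signalling switches on, was highest in endothelial-like cells, at 85.5, 79.4 and 61.3 CPM. All other classes lay far lower, with 18.8, 14.9 and 28.7 CPM in Müller glia-like, 21.5, 19.6 and 18.3 CPM in pericyte-like and 13.8, 17.6 and 16.4 CPM in bipolar-like cells, and no class overlapped the endothelial-like values. The endothelial-like class was above the Müller glia-like by 1.93 on the log2 scale (SE 0.18, edgeR adjusted p = 3.83e-13) and above the pericyte-like by 2.08 (SE 0.25, edgeR adjusted p = 8.24e-10). In Müller glia-like cells each value was above the level that endothelial RNA would give. In pericyte-like cells the lower end of the counting interval lay above that level in the young library, and below it in the adult and old libraries.

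Apcdd1 (ENSMUSG00000071847; chromosome 18, 62922231 to 62961179, plus strand), a Wnt target whose membrane protein dampens the signal, had a broader reach. Endothelial-like cells held 214, 199 and 152 CPM, pericyte-like cells 79, 80.3 and 99.6 CPM and the smooth muscle class 68.3, 73 and 69.6 CPM. Both mural classes were above the level that endothelial RNA would give in every library. Bipolar-like cells held 28.4, 30.3 and 29.1 CPM and Müller glia-like cells 13.3, 17.5 and 19.8 CPM. Of the 112 UMIs of Apcdd1 in bipolar-like cells, 92 lay in the cluster led by Pcp2 and Prkca, at 45.4, 44.8 and 50.4 CPM, while the other 4 bipolar-like clusters held 2 to 8 UMIs each. Rod-like cells held 1 and cone-like cells 4 UMIs. Endothelial-like cells were above Müller glia-like cells by 3.53 on the log2 scale (SE 0.15, edgeR adjusted p = 2.40e-25) and above pericyte-like cells by 1.31 (SE 0.14, edgeR adjusted p = 6.57e-11).

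Counted over the members, the RNA of receptors, effector and targets was higher in endothelial-like cells than in most other classes. Of the 8 members that passed the count minimum, all 8 were higher in endothelial- than in Müller glia-like cells, where 34.3% of the 11067 genes tested were higher, with a median difference of 2.14 on the log2 scale against 0.00386 over all genes. All 8 were also higher than in bipolar-like (39.2% of all genes), cone-like (36.9%) and rod-like cells (36.9%). Against pericyte-like cells 5 of 8 were higher, beside 23.1% of all genes, and Lrp5, Lrp6 and Tspan12 did not pass the test, though with classes set from each cell's own markers Lrp6 was higher by 0.32 on the log2 scale (edgeR adjusted p = 0.0437). Against the smooth muscle class 6 of 8 were higher, beside 21.9% of all genes, and Tspan12 was lower, as were 16.5% of all genes.

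Müller glia-like cells held receptor and target RNA at lower levels than endothelial-like cells, and were compared with the other classes in turn. Against bipolar-like cells 5 of 8 members were higher and Apcdd1 was lower, where 63.3% of all genes passed in either direction. Against cone-like cells 6 were higher (58.7% of all genes in either direction) and against rod-like cells 6 were higher and Fzd4 was lower (61%). Both counts hold Lef1, whose level in Müller glia-like cells was above what endothelial RNA would give only in the adult library, judged by the lower end of its counting interval. Against pericyte-like cells 6 of 8 were lower (54.3%), and against the smooth muscle class 4 were lower and Axin2 was higher (47.6%). These backgrounds are high, and the counts of members lie near or somewhat above them. Several calls were lost when 1 library was left out, all with edgeR's test. Axin2 lost its call against bipolar-like cells without the young (adjusted p = 0.153) or the old library (0.392), against rod-like cells without the old library (0.116) and against the smooth muscle class without the adult (0.161) or the old library (0.0975). Apcdd1 lost it against bipolar-like cells without the young (adjusted p = 0.15) or the adult library (0.116), and Fzd4 against rod-like cells without the young (0.282) or the adult library (0.173). Lrp6 lost it against cone-like cells without the young (adjusted p = 0.219) or the adult library (0.0864), and Lef1 against cone- and rod-like cells without the adult library (0.0787 and 0.0767). Lrp5 lost it against pericyte-like cells without the adult library (adjusted p = 0.173) and Ctnnb1 against the smooth muscle class without the old library (0.213). Some of these differences were no smaller with fewer libraries. Without the adult library Apcdd1 against bipolar-like cells was -0.56 on the log2 scale, against -0.55 with all libraries, Fzd4 against rod-like cells -1.17 against -1.15, and Lrp6 against cone-like cells 0.60 against 0.51. Without the old library Axin2 against the smooth muscle class was 1.39, against 1.32. Other settings ended some calls too. Without cells that held markers of another class, Apcdd1 against bipolar-like cells was -0.08 on the log2 scale (edgeR adjusted p = 0.799), Lrp5 against pericyte-like cells -0.42 (edgeR adjusted p = 0.223) and Ctnnb1 against pericyte-like cells -0.25 (edgeR adjusted p = 0.133). With classes set from each cell's own markers, Lef1 against rod-like cells was 0.91 (edgeR adjusted p = 0.312), and Apcdd1 against bipolar-like and Fzd4 against rod-like cells lost their calls as well (edgeR adjusted p = 0.11 and 0.0851). Axin2 against bipolar-like cells lost its call without cells that held other markers (edgeR adjusted p = 0.145) and in DESeq2 (adjusted p = 0.116), as it did against the smooth muscle class (adjusted p = 0.0826 and 0.0574), and Fzd4 against rod-like and Lrp6 against cone-like cells lost theirs in DESeq2 (adjusted p = 0.0597 and 0.0867). The DESeq2 folds were close to edgeR's, at 0.57 for Axin2 against bipolar-like cells (0.60 in edgeR), 1.30 against the smooth muscle class (1.32), -1.17 for Fzd4 (-1.15) and 0.50 for Lrp6 (0.51). Some calls were gained. Against bipolar-like cells Lef1 went from 0.85 to 2.78 with own-marker classes (edgeR adjusted p = 0.00679) and 3.16 without cells that held other markers (edgeR adjusted p = 0.00242), and Fzd4 from 1.29 to 1.68 and 1.56 (edgeR adjusted p = 0.0315 and 0.0373). Lef1 against the smooth muscle class was -2.34 with own-marker classes (edgeR adjusted p = 0.000751).

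Within the endothelial-like class the levels of several members differed between clusters. The class held a larger cluster with capillary markers (393, 373 and 329 cells) and a smaller cluster led by the arterial genes Gkn3, Vegfc and Sema3g (43, 54 and 75 cells). Apcdd1 stood at 71.6, 67 and 42.4 CPM in the arterial and at 236, 222 and 181 CPM in the capillary cluster, without overlap, a pooled ratio of 0.269 (0.217 to 0.330). Lef1 had a ratio of 0.693 (0.632 to 0.760), Axin2 of 0.643 (0.508 to 0.806) and the receptor gene Fzd4 of 0.720 (0.606 to 0.852), all over the pooled libraries. Within libraries the Fzd4 ratio was 0.778 (0.553 to 1.07), 0.497 (0.342 to 0.703) and 0.877 (0.679 to 1.12), so that only the adult interval left out 1. For Axin2 it was 0.587 (0.365 to 0.901), 0.602 (0.382 to 0.910) and 0.783 (0.537 to 1.12), and the old interval took in 1. The intervals of Lef1 and Apcdd1 left out 1 in every library. Not every pathway target was lower in the arterial cluster: Ccnd1 had a pooled ratio of 4.51 (3.92 to 5.18), at 143, 217 and 282 CPM against 29.6, 55.8 and 65.3 CPM. Lrp5 (1.16, 0.883 to 1.5), Lrp6 (1.17, 0.985 to 1.39) and Tspan12 (0.979, 0.773 to 1.23) had intervals that took in 1. These are descriptions of clusters cut from the same cells, with no test.

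**Figure D2:**
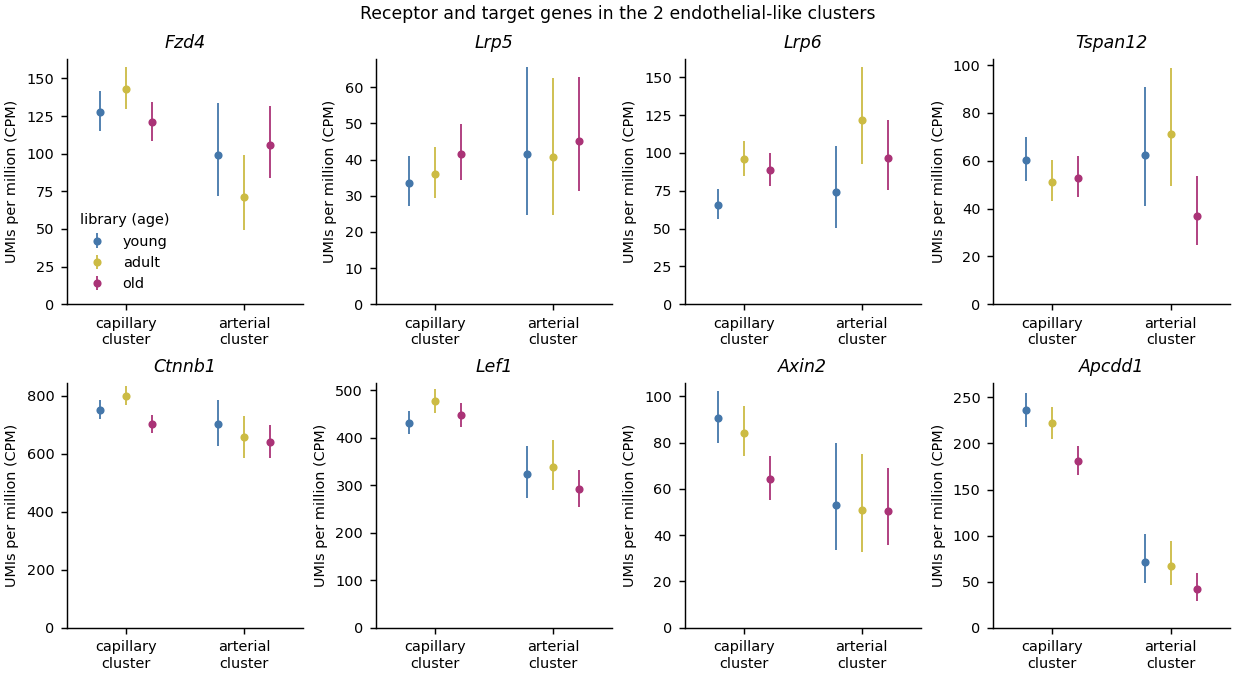
Level of the 8 members other than Ndp in the capillary-led and the arterial-led endothelial-like cluster, in CPM on a linear axis from 0 that differs between genes, with 1 point per library and bars for the exact 95% Poisson interval, counting error only. Apcdd1 lies between 42.4 and 71.6 CPM in the arterial-led cluster and between 181 and 236 CPM in the capillary-led cluster, while Lrp5 and Tspan12 overlap.

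With 1 library per age, differences between ages have no replicate check, so no test was made, and ratios carry exact 95% intervals for counting error only. A gene was counted as past 1.5-fold where it had at least 50 UMIs in the 2 libraries together and a ratio of at least 1.5 or its inverse. In endothelial-like cells 0 of 8 members with enough UMIs were past 1.5-fold in the adult, beside 4.18% of all genes, and 0 of 8 in the old library, beside 7.99%. The receptor gene and the genes of its partners Tspan12 and Lrp5 had intervals that took in 1: the old to young ratio was 0.95 for Fzd4 (0.83 to 1.09), 0.82 for Tspan12 (0.66 to 1.01) and 1.22 for Lrp5 (0.95 to 1.57). Lrp6 had a ratio of 1.49 in the adult (1.25 to 1.78) and 1.35 in the old library (1.14 to 1.62). In the droplets with both endothelial and pericyte markers its ratio was 1.05 in the adult (0.908 to 1.22) and 1.06 in the old library (0.913 to 1.24), and with these droplets counted as endothelial the adult ratio was 1.22. In the class itself Lrp6 was seen in 31.7, 40.3 and 47.5% of endothelial-like cells, and in 12.5, 16.0 and 14.5% of thinned cells.

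The target genes Axin2 and Apcdd1 had the lowest old to young ratios among the members in endothelial-like cells. Axin2 stood at 0.93 of the young level in the adult (0.78 to 1.10) and 0.72 in the old library (0.60 to 0.86). Apcdd1 stood at 0.93 in the adult (0.84 to 1.04) and 0.71 in the old library (0.63 to 0.80). Lef1, a target of the same pathway, had ratios of 1.10 (1.02 to 1.18) and 1.00 (0.93 to 1.07), though the adult ratio was 0.995 by the mean over cells. In an unnamed cluster with endothelial markers and few UMIs per cell, outside the class, the Lef1 ratios were 0.679 (0.513 to 0.892) and 0.733 (0.576 to 0.932). In the class Ctnnb1 had an old to young ratio of 0.93 (0.88 to 0.98). In the unnamed cluster the Ctnnb1 ratio was 1.29 in the adult (1.00 to 1.66) and 1.41 in the old library (1.13 to 1.78). Axin2 stood there at 85.2, 54.6 and 103 CPM, on 17, 9 and 25 UMIs, and the old to young ratio of Apcdd1 was 0.742 (0.466 to 1.18). Cells with a UMI of Apcdd1 were 60.1, 57.1 and 55.4% of endothelial-like cells, and 34.0, 26.9 and 24.3% after thinning. The arterial-led cluster, where Axin2 and Apcdd1 were lower, made up 9.86% of young, 12.6% of adult and 18.6% of old endothelial-like cells. In the capillary-led cluster alone the old to young ratio was 0.71 for Axin2 (0.58 to 0.86) and 0.77 for Apcdd1 (0.68 to 0.86). In the arterial-led cluster it was 0.946 for Axin2 (0.549 to 1.66), at 53.2, 50.7 and 50.3 CPM, and 0.591 for Apcdd1 (0.349 to 1.00), and both intervals took in 1. In the droplets with both endothelial and pericyte markers, which are not part of the class, the ratios were 0.82 for Axin2 (0.679 to 0.987) and 0.815 for Apcdd1 (0.725 to 0.915). Droplets with both endothelial and erythroid (red blood cell) markers, also outside the class, went the other way for Apcdd1. Its ratio there was 1.85 in the adult (1.27 to 2.73) and 1.08 in the old library (0.686 to 1.71). Markers of other classes also moved with age in the endothelial-like class: the 8 pericyte markers together went from 1955 and 1981 to 1254 CPM. The 7 Müller glia markers went from 722 to 862 and 1058 CPM, and the 8 rod markers from 60.8 to 105 and 136 CPM. No marker of these lists was at 0. At the share of the Müller glia markers, Ndp would stand at 0.671, 0.660 and 0.927 CPM in this class. It stood at 0.312, 0 and 0 CPM. How much of this marker RNA came from other cells was not tested, nor was its part in the ratios.

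The sender did not differ with age beyond counting error, with an Ndp ratio in Müller glia-like cells of 0.85 in the adult (0.48 to 1.51) and 0.98 in the old library (0.54 to 1.75). These intervals are wide and do not show that the levels were alike. Of 7 members with enough UMIs in Müller glia-like cells, 1 was past 1.5-fold in the adult (7.66% of all genes) and 1 in the old library (8.58%). They were Tspan12, at 0.653 in the adult (0.402 to 1.05), and Axin2, at 1.53 in the old library (0.947 to 2.50), and both intervals took in 1. Under stricter limits on cells the Tspan12 ratio was 1.09. Ctnnb1 stood at 0.80 in old Müller glia-like cells (0.66 to 0.96).

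In the smooth muscle class 0 of 3 members with enough UMIs were past 1.5-fold in the adult (11.3% of all genes) and 2 of 3 in the old library (14%). Fzd4 stood at 0.487 of the young level (0.285 to 0.813) and Tspan12 at 0.518 (0.295 to 0.893), on 44 and 25, and on 38 and 23 UMIs from 38 and 37 cells. The 8 pericyte markers in this class went from 8820 and 8255 to 4497 CPM, none of them at 0, while its own 5 markers went from 21515 to 25352 and 27291 CPM. Pericyte-like cells themselves did not have lower Fzd4 or Tspan12 in the old library, and the part of this RNA in the ratios was not tested. No member was past 1.5-fold in the pericyte-like (0 of 5, beside 9.41% of all genes in adult and 12.1% in old cells), rod-like (0 of 2, beside 11.1 and 10.8%), cone-like (0 of 2 in the adult and 0 of 1 in the old library, beside 8.24 and 10%) or bipolar-like cells (0 of 3, beside 6.1 and 8.37%). In cells thinned to 2000 UMIs the members past 1.5-fold were others: Ctnnb1 stood at 1.54 in adult Müller glia-like cells, against 1.00 unthinned, and at 1.58 in old bipolar-like cells, against 1.16 unthinned.

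**Figure D3:**
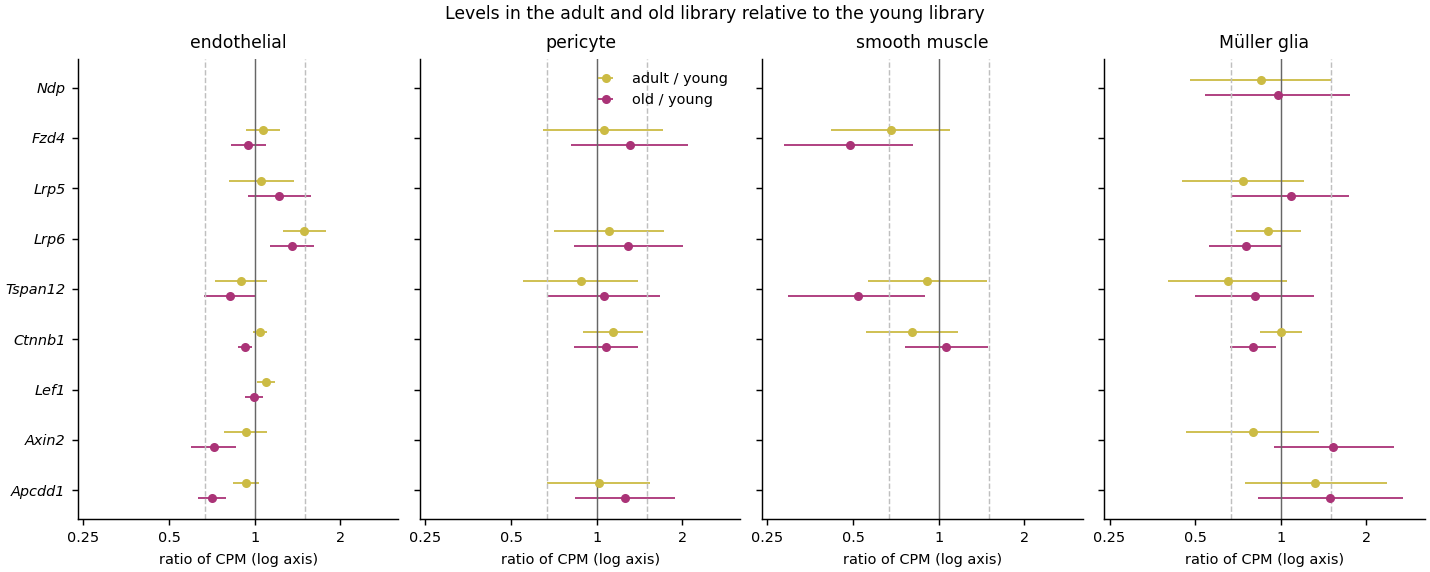
Ratio of the adult (12 months) and old (23 months) level to the young (3 months) level for each member with at least 50 UMIs in both libraries together, in the endothelial-like, pericyte-like, smooth muscle and Müller glia-like class, on a log axis with bars for the exact 95% interval, counting error only, a line at 1 and broken lines at 1.5 and its inverse. In endothelial-like cells Apcdd1 and Axin2 lie at 0.71 and 0.72 in the old library and Lrp6 at 1.35, and in the smooth muscle class Fzd4 and Tspan12 lie at 0.487 and 0.518.

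The rest of the pathway was read from 93 genes in fixed groups, of which 54 passed the count minimum. Between endothelial- and Müller glia-like cells 27 of these 54 were higher, beside 34.3% of all genes, and 23 were lower, beside 35% of all genes. The 13 genes of the endothelial barrier group, such as the tight junction gene Cldn5, were all higher in endothelial- than in Müller glia- and pericyte-like cells, where 34.3 and 23.1% of all genes were higher. The group also holds Plvap, a gene of leaky endothelium. Of its endothelial-like UMIs, 86 of 87 young and 47 of 57 adult ones lay in 1 cell each. The receptors went mostly the other way: of 13 tested, 2 were higher in endothelial-like and 10 in Müller glia-like cells. Fzd6 was among those 2, at 215, 205 and 196 CPM in endothelial-like cells, above Müller glia-like cells by 3.35 on the log2 scale (SE 0.16, edgeR adjusted p = 1.67e-23). Reck, which with Adgra2 lets cells read Wnt7 ligands, was the other, at 185, 184 and 193 CPM and above by 1.84 (SE 0.12, edgeR adjusted p = 9.95e-19). Adgra2 itself stood at 104, 117 and 115 CPM in endothelial-like and at 90.7, 107 and 131 CPM in Müller glia-like cells, a difference of 0.10 (SE 0.10, edgeR adjusted p = 0.408). The ligand Wnt7a, named here after its value was seen, had 1 UMI in Müller glia-like cells and 0 in the other compared classes.

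Müller glia-like cells held other Frizzled receptors and secreted inhibitors. Fzd5 stood at 250, 241 and 251 CPM there and was lower in endothelial-like cells by -5.88 on the log2 scale (SE 0.17, edgeR adjusted p = 5.19e-32). Fzd3 stood at 138, 115 and 128 CPM. The secreted proteins that bind or antagonise Wnts were led by Dkk3, at 2091, 1944 and 2178 CPM in Müller glia-like cells, with an endothelial-like difference of -8.35 (SE 0.18, edgeR adjusted p = 6.79e-37). Frzb stood at 105, 137 and 145 CPM there, with a difference of -7.32 (SE 0.27, edgeR adjusted p = 1.19e-26). Of 4 secreted inhibitors tested, 3 were higher in Müller glia-like cells, beside 35% of all genes. The other 1, Notum, was higher in endothelial-like cells, beside 34.3% of all genes, at 25.6, 22 and 22.1 CPM. Notum encodes an enzyme that inactivates Wnts.

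Of 7 nuclear partners tested, 3 were higher and 4 lower in endothelial- than in Müller glia-like cells, and of 3 general targets 1 was higher and 2 were lower, beside the 34.3 and 35% of all genes given above. Tcf7 stood at 78, 83.9 and 71.6 CPM in endothelial-like cells, above Müller glia-like cells by 3.89 on the log2 scale (SE 0.23, edgeR adjusted p = 4.84e-20), whereas Tcf7l2 stood at 185, 156 and 175 CPM in Müller glia-like cells and was lower in endothelial-like cells by -1.68 (SE 0.11, edgeR adjusted p = 1.24e-17). Tnfrsf19, a target, stood at 129, 123 and 107 CPM in endothelial-like and at 0 in Müller glia-like cells. Nkd1, a target that inhibits the pathway, was highest in the smooth muscle class, at 189, 243 and 214 CPM, and next in Müller glia-like cells, at 113, 122 and 122 CPM, with endothelial-like cells lower than the latter by -1.21 (SE 0.12, edgeR adjusted p = 3.90e-12). Wls, needed to export Wnts, stood at 191, 200 and 146 CPM in pericyte-like cells, 87.8, 113 and 142 CPM in the smooth muscle class and 67.7, 67.2 and 56.4 CPM in endothelial-like cells, against 1 UMI in Müller glia-like cells. The ligand Wnt5b stood at 97.5, 69.9 and 55.7 CPM in the smooth muscle class, above endothelial-like cells (log2 difference -2.03, SE 0.27, edgeR adjusted p = 2.96e-08). Cone-like cells held Fzd10, at 144, 112 and 127 CPM.

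**Figure D4:**
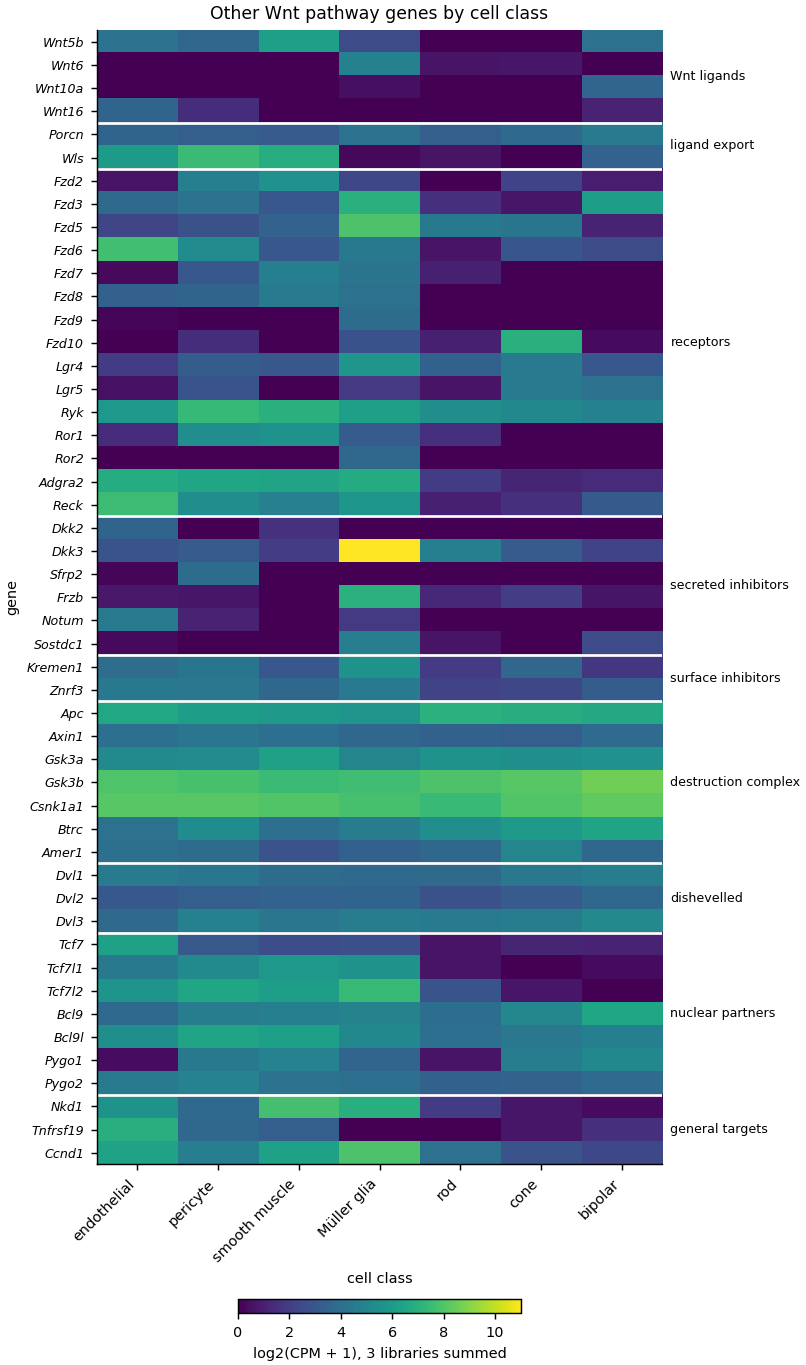
Levels of the 49 pathway genes, barrier genes left out, that reached 10 CPM in at least 1 class, as log2 of the CPM over the pooled libraries plus 1, in the 7 compared classes and grouped by role (brighter is higher). Dkk3, Frzb and Fzd5 are brightest in the Müller glia-like column, Fzd6, Reck, Tcf7 and Tnfrsf19 in the endothelial-like column and Wls in the pericyte-like column.

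With age, 27 of 249 values of pathway genes, counted over classes and both later ages, were past 1.5-fold, as were 4 of 59 values of the members, beside 8.33% of the values of all genes counted the same way. In endothelial-like cells Ccnd1, a cell cycle gene counted among the targets, stood at 44.9, 79.4 and 111 CPM, an old to young ratio of 2.46 (2.03 to 3.00). It was seen in 18.6, 24.1 and 27.7% of the cells, and its ratio in the capillary-led cluster alone was 2.21. Wnt16 had an old to young ratio of 3.67 (2.02 to 7.12), on 14 young and 58 old UMIs. Dkk2, an antagonist, had a ratio of 5.19 (2.92 to 9.90) on 14 and 82 UMIs. Its UMIs lay in the arterial-led cluster, at 27.7, 24.4 and 98.0 CPM against 0.721, 0.697 and 2.79 CPM in the capillary-led cluster, so that the larger arterial share of the old library moved with it, and the share's part was not tested. Fzd3 (1.84, 1.14 to 3.02) and Wnt5b (1.52, 1.02 to 2.28) were also past 1.5-fold in the old library, as were, in the other direction, Dvl3 (0.556, 0.346 to 0.881) and the amino acid transporter gene Slc38a5 (0.647, 0.514 to 0.814). In the capillary-led cluster alone Fzd3 stood at 1.74 (0.982 to 3.18) and Wnt5b at 1.57 (0.923 to 2.73), with intervals that took in 1. Slc38a5 stood at 0.708 there, at 0.845 without cells that held other markers and at 0.861 in thinned cells, and was then no longer past 1.5-fold. The ratio of Plvap, a gene of leaky endothelium, was 0.0611, but 86 of its 87 young UMIs came from 1 cell and 47 of 57 adult UMIs from another.

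In Müller glia-like cells the ligand Wnt6 stood at 13.3 CPM (22 UMIs), 20.6 CPM (40 UMIs) and 50.4 CPM (79 UMIs), an old to young ratio of 3.79 (2.34 to 6.38). It was seen in 17 of 180 young and 50 of 208 old cells, with median depths of 9171 and 6912 UMIs, and outside Müller glia-like cells the compared classes held at most 1 UMI each. Fzd8 stood at 0.316 of the young level in the old library (0.151 to 0.615), on 40 and 12 UMIs, and Znrf3, which removes Frizzled receptors from the surface, at 1.75 (1.08 to 2.87). In bipolar-like cells the glucose transporter gene Slc2a1 had an old to young ratio of 1.68, on 36 and 51 UMIs. In the smooth muscle class the adult to young ratio of Cldn5 was 28.1, with 58 of 60 adult UMIs in 1 cell.

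The genes most like each member were found over the 21 sums of 7 classes and 3 libraries, by Pearson correlation of the log2 CPM with an offset of 10, as a description in which the sums share libraries and depth. Lef1 went most closely with Cyyr1, Mecom and Abcc4 (0.993 each), Fzd4 with Apold1 (0.957), Tm4sf1 (0.956) and Tgfb1 (0.955), and Apcdd1 with Arfgap3 (0.980), Slc9a3r2 (0.972) and Cd200 (0.970). Lrp5 went with Fkbp9 (0.978), Tspan12 with Tprgl (0.983), Ctnnb1 with Abcg2 (0.984) and Axin2 with Klf10 (0.919). Lrp6 had no gene above 0.788 (Commd10). Ndp had 81 UMIs in all and was left out for low counts.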

How the data were processed

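The deposited values were raw counts: UMIs per gene and barcode, made by the authors with Cell Ranger 6.1.2 on mm10 per the labels. The study's limits were applied (500 to 6000 genes, 1 to 20% mitochondrial UMIs) and doublets called by Scrublet in scanpy 1.11.5 (8, 17 and 12 cells, a weak call) were left out. Cells were integrated and clustered in Seurat 5.3.0 (R 4.3.3; 2000 features, 30 principal components, resolution 0.5) without the members and pathway genes. A class name needed 3 markers, each in 20% of the cells and at 25% of its highest level. Totals of kept and dropped barcodes were 16577026, 19977238 and 17021820 UMIs in 2491, 3243 and 2751 barcodes.

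Counts were summed per library and class and tested with edgeR 4.0.16 (quasi-likelihood F test, library as block, Benjamini-Hochberg threshold 0.05) after its filter on low counts. The 3 libraries served as replicates of a class although they differ in age, so the spread includes age. The script was tested on simulated data. Ratios, shares and Poisson intervals (scipy 1.17.1, 95%) and the limit for a count of 0 (3 counts) cover counting error only. Sequences and starts come from RefSeq on GRCm38.p6, gene positions from GENCODE M21 on GRCm38. Members were all named, and pathway genes where they passed the test in the contrast described or were past 1.5-fold with an interval that leaves out 1, except Adgra2 and Wnt7a, named after their values were seen, and genes of the closing section, named there for opposite ratios or a reversed direction. The members, lists and tests were chosen with earlier results of these data known. Alternatives were DESeq2 1.42.0, other filters, other classes, thinning to 2000 UMIs and leaving out a library.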

Additional observations from a re-analysis of the deposited data

Results flagged for a closer look

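Gsk3b, which encodes a kinase of the β-catenin destruction complex, had an adult to young ratio of 1.23 in bipolar-like and 0.726 in rod-like cells, opposite directions under the same contrast. With 1 library per age every sample of a class moves together, and the difference was not tested.

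A cluster with endothelial markers but a low UMI count (70 young, 76 adult and 90 old cells), which was left unnamed and entered no comparison, held 606 CPM of Lef1 over the pooled libraries, against 429 CPM in the endothelial-like class. Its Lrp6 level was 125 CPM, against 86.0 CPM in the highest compared class, the endothelial-like. By library its Lrp6 was 150, 97.2 and 123 CPM, on 30, 16 and 30 UMIs, and the adult value lay below the 99.6 CPM of adult endothelial-like cells. Its Lef1 was 752, 510 and 551 CPM, above the endothelial-like 416, 457 and 415 CPM in each library. Both are values in cells outside the main measurement.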

How the results depend on the processing

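Over the alternatives, the number of member calls between classes was 41 to 46 for endothelial-like cells (main 44 of 48 tested, and 42 to 46 of 54 when a library was left out, where Ndp was tested too) and 34 to 45 for Müller glia-like cells (main 38 of 48, and 37 to 40 of 54). Pathway calls were 370 to 499 (main 417 of 594, 370 to 397 of 594 to 627 when a library was left out, and 499 of 957 with no filter). Without the replicate block for the library the counts were 44, 37 and 417. Of 752 values of member folds between classes, 705 kept direction and side of the threshold, 39 lost and 7 gained the call and 1 reversed: Axin2 in Müller glia- against pericyte-like cells was -1.07 on the log2 scale with classes set from each cell's own markers (edgeR adjusted p = 7.80e-06). Of 910 age ratios 876 moved within their interval, 27 moved beyond it and 7 reversed. The reversed adult to young ratios in endothelial-like cells were Lef1 at 0.995 and Plvap at 1.05 by the mean over cells, Slc38a5 at 1.03 without cells with other markers, and Slc7a1 at 0.995 with mixed droplets counted as endothelial and 0.993 with own-marker classes. Cldn5 in the smooth muscle class was 0.843 with own-marker classes, and old to young Frzb in Müller glia-like cells was 0.969 in thinned cells. Members past 1.5-fold between ages (main 4 of 59) numbered 7 of 72 with a minimum of 20 UMIs, 0 of 30 with 100, 1 of 37 with stricter limits on cells, 2 of 59 with doublets kept and 2 of 21 with thinned cells. Pathway values past 1.5-fold (main 27 of 249) numbered 83 of 398, 6 of 165 and 6 of 109 with minimums of 20 and 100 UMIs and with thinned cells. The share of endothelial-like cells with the whole receptor complex was 0.491% in thinned cells. The causes were not tested, beyond that fewer UMIs leave fewer genes measured. Old to young ratios in endothelial-like cells were 0.71 to 0.82 for Axin2 and 0.68 to 0.77 for Apcdd1 over all alternatives, the capillary-led cluster alone, added after seeing the data, included. Under stricter limits the smooth muscle class falls under 30 cells in the young library (27) and the cone-like class in the young and old libraries (17 and 24). Depth limits Ndp most, with at most 27 UMIs in a class and library.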

Other observations

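Outside the compared classes, Lef1 was also found in droplets with microglia and T cell markers, at 213 CPM in 9 young, 248 CPM in 29 adult and 134 CPM in 14 old cells. Lef1 is also known as a gene of T cells. Fzd4 stood at 108 CPM over the pooled libraries in 61 pigment epithelium-like cells, 53 of them old, where 28 UMIs made 110 CPM.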
